A study of Mus musculus with 10 samples.

Results

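Pgk1 and 9 other housekeeping genes (Hprt, Gapdh, Eef1a1, Tbp, Polr2a, Ppia, Sdha, B2m and Gusb) were followed across ATAC-seq peak lists of mouse neural stem cell lines. ATAC-seq maps open chromatin by the cuts that the Tn5 transposase makes in it. A peak was given to a gene when its summit lay within 1 kb of either end of the gene in the RefSeq table of GRCm38, whose coordinates are those of mm10. All 10 genes had such an end peak in each of the 4 lists, as did 13465 of the 21887 protein-coding genes of the table, which form the common set used for comparison. The genes were chosen by earlier results: Pgk1 was selected on the higher rank of its peak in the deleted lists, so its rise is a description and carries no test.

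The lines were derived from E14.5 C57BL/6 embryos with floxed Smchd1 alleles. The protein Smchd1 acts on chromatin and maintains gene silencing on the inactive X chromosome. From females came 3 control (Smchd1 fl/fl) and 3 deleted (Smchd1 del/del) libraries, and from males 2 of each. Per the labels' protocols, established lines were transduced with the retrovirus MSCV-Cre-puro, put under puromycin from 24 h and collected at 7 days. The same text is attached to the 10 samples, and the sources used here do not give the vector, if any, of the control cells. The authors pooled the libraries of a group into 1 peak list. With 1 list a group there is no replicate spread, and differences are given as values without a test. For males the title and sex label were followed, although a description field names them female. The female lists rested on 144613215 tags (control) and 139318421 (deleted), the male lists on 91734730 (control) and 74674218 (deleted).

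Of 12 markers of neural stem and progenitor cells, 10, 11, 12 and 11 had an end peak, in the order control females, deleted females, control males, deleted males, which is kept below. Sox2 and Nes had one in every list, and Pax6 had one only in control males. The pileups of this marker list summed to between 923 and 1282. Of 6 microglia and blood markers 1, Tmem119, had an end peak, with a pileup of 34 to 67, and Ptprc and Csf1r had none in any list. Of 8 neuron markers 5 to 7 had one, with a sum of 446 to 763, of 5 astrocyte markers 3 or 4, with 135 to 257, and of 5 oligodendrocyte markers 3 or 4, with 121 to 275. Endothelial markers had one for 1 or 2 of 4, with 75 to 140, and fibroblast markers for 3 or 4 of 5, with 96 to 213. All these sums were lower in the deleted list of each sex, as was the median pileup of the common set. The marker lists differ in length, so the sums do not compare cell types. By −log10 q, the median rank of the neuron marker peaks was 5536, 7172.5, 6259 and 7215. That of the stem and progenitor marker peaks was 24201, 25371, 25850.5 and 20225, a weaker rank in each list. The part of other cell types in the values of the housekeeping genes was not tested.

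Housekeeping genes serve needs of every cell, and their promoters are typically rich in CpG and open in all tissues. Pgk1 encodes phosphoglycerate kinase, the enzyme of the first ATP-forming step of glycolysis. Like Hprt, which encodes a purine salvage enzyme, it lies on the X chromosome and is subject to X inactivation, so female cells normally use 1 of their copies. The mouse Pgk1 promoter is also widely used in vectors, and MSCV vectors with a puromycin marker commonly carry it in front of that marker. The sources used here hold no map of the vector. Reads from a vector copy of the promoter would align to the chromosomal gene, so a signal at Pgk1 may hold such reads. Whether it did was not tested.

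The 250 bases before the transcript start are shown for the X-linked pair and for Polr2a and Eef1a1, the members whose fold enrichment rose most after Pgk1 in females and in males. They were taken from RefSeq (GRCm38.p6), 5′ to 3′ on the strand of the gene: chrX:106186850-106187099 (+) for Pgk1, chrX:52987828-52988077 (+) for Hprt, chr11:69758634-69758883 (-) for Polr2a and chr9:78481725-78481974 (-) for Eef1a1. Capitals mark GC boxes (GGGCGG) and CCAAT boxes on either strand.
Pgk1: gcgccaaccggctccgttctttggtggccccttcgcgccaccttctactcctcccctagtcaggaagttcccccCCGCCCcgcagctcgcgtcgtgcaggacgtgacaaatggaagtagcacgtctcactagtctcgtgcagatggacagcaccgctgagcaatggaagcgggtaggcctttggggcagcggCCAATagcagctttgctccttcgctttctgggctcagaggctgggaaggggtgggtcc
Hprt: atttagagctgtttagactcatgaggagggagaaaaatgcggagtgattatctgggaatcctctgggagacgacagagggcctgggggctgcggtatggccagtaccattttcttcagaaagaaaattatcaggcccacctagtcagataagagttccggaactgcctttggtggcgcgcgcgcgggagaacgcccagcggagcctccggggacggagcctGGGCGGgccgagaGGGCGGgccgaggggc
Polr2a: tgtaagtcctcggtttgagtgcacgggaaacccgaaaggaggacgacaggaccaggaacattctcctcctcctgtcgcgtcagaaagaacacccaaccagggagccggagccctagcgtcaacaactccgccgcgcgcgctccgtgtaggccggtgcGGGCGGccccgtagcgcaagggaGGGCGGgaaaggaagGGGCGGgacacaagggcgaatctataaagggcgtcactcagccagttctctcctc
Eef1a1: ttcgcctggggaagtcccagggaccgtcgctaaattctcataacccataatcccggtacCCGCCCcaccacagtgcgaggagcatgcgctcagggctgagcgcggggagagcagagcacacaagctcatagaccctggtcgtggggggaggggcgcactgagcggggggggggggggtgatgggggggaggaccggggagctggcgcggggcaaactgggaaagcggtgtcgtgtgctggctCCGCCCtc
All 10 members had a promoter entry. In windows of 300 bases, from 250 before to 50 after the start, 6 of the 10 held a GC box, against 46.3% of 17492 coding promoters, and Pgk1, Sdha and B2m held a CCAAT box, against 39.0%. TATAAA stood in Polr2a, Ppia and B2m (13.3% of promoters). None of the 10 held the ETS motif CCGGAAG (11.9%), the E-box CACGTG (7.9%) or the YY1 motif AAGATGGCG (1.94%). Motifs were searched on both strands, and 1 of the 5 GC boxes of Pgk1 overlapped another. The Pgk1 window had 66.7% G and C and 24 CpG, that of Gusb 49.7% and 6, and the medians over coding promoters were 56.3% and 13. With the first transcribed base as 0, the CCAAT box of Pgk1 ran from -58 to -54, and the peak summit lay at -79 to -77 in the 4 lists.

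The Pgk1 peak was taller in the deleted list of each sex. Its pileup, the number of extended tags over the summit, was 170 in the control and 191 in the deleted list of females, and 147 and 176 in those of males. These heights are not scaled for depth, and both deleted lists rested on fewer tags than their controls. They also have a ceiling of 300, because 1 tag was kept per position and tags were extended to 150 bp. In such pooled cells, more cells with an open site and more cuts per cell cannot be told apart. Over the common set the median pileup went the other way, from 122 to 101 in females and from 92 to 79 in males. A higher pileup in the deleted list was found for 3.65% of the common set in females, for 10.6% in males and for 1.18% (159 genes) in both. Among the 10 members the pileup was higher in deleted females for Pgk1 and for Polr2a, which went from 129 to 130. In males it was higher for Pgk1 and for Eef1a1, which went from 119 to 120.

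Fold enrichment, the authors' ratio of the summit over local background, was 7.64 for Pgk1 in control females and 8.64 in deleted females. The male values were 10.6 in the control and 13.0 in the deleted list. The ratio also differs between lists as a whole, so each value was divided by the median of the common set in its list (6.19, 5.83, 7.29 and 7.31 in the same order). Scaled in this way, Pgk1 stood at 1.23 and 1.48 times the median gene in control and deleted females and at 1.45 and 1.78 times in males. The scaled change was 1.20-fold in females, 0.27 on the log2 scale, and 1.22-fold in males, 0.29. In the common set 3.04% of genes rose by at least as much as Pgk1 in females, 3.32% in males and 0.498% (67 genes) in both. By scaled pileup the Pgk1 change was larger, 1.36-fold in females (0.44) and 1.39-fold in males (0.48).

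**Figure D1:**
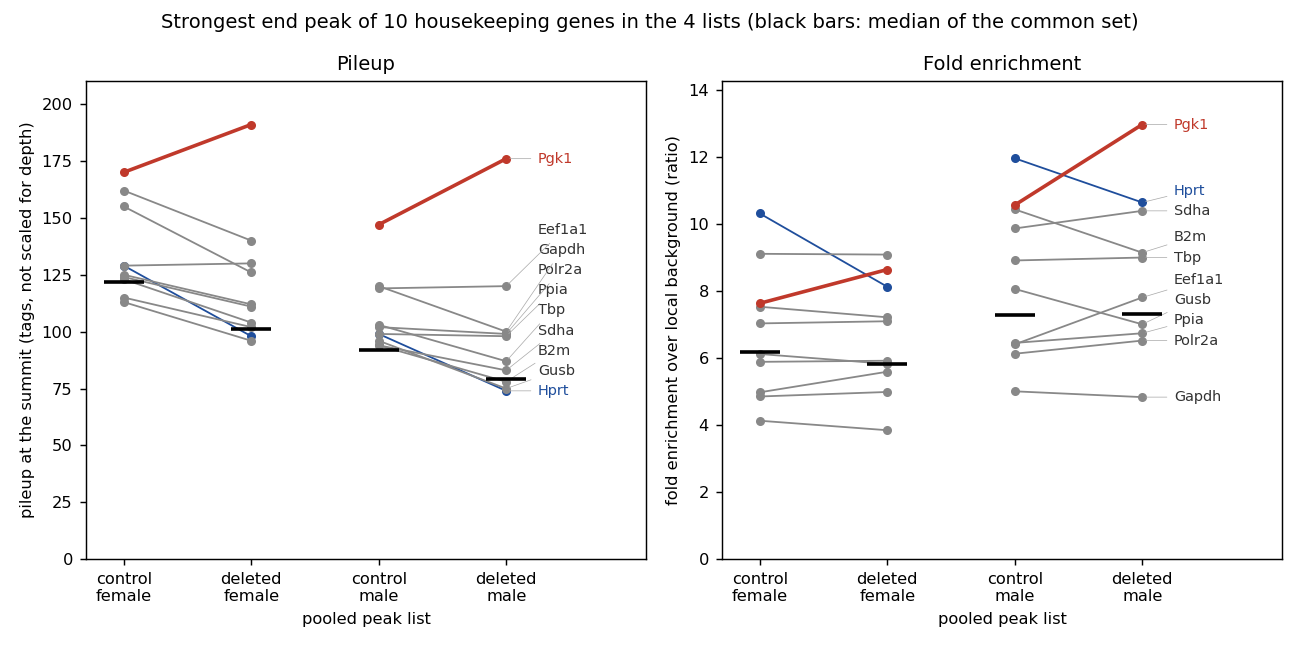
Pileup (left, tags at the summit, not scaled for depth) and fold enrichment (right, ratio) of the strongest end peak of each of the 10 genes in the 4 pooled lists; lines join control and deleted lists of a sex, and black bars are the median of the 13465 genes of the common set. Pgk1 (red) has the tallest peak in each list and rises from 170 to 191 in females and from 147 to 176 in males, while Hprt (blue) falls from 129 to 98 and from 99 to 74.

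The yardstick available is the difference between lists of 1 genotype. Over the common set, the scaled log2 fold enrichment of control males against control females had an SD of 0.16. Pgk1 itself was 0.23 higher in control males than in control females and 0.26 higher in deleted males than in deleted females. Its difference between the sexes within a genotype was thus close in size to its difference between genotypes. By scaled pileup the differences between the sexes were 0.20 and 0.24, smaller than the 0.44 and 0.48 between genotypes. The lists differ in depth, and the tag size was 53 bp in control and 63 bp in deleted females and 62 bp in control and 59 bp in deleted males. Males and females also differ in their X chromosomes, on which Pgk1 lies. Over 438 X genes of the common set the median difference of males against females was 0.05 in control and 0.10 in deleted lists. Over 13026 autosomal genes it was -0.002 and -0.02. The part of depth, tag size and the number of X chromosomes in the differences between genotypes and between sexes was not tested.

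A limit of 0.32 on the log2 scale, in either direction, was used to count changes. No member passed it in scaled fold enrichment. In females 0 of 10 were higher, where 1.36% of the common set was, and 0 were lower, where 4.35% was. In males 0 were higher, against 2.37%, and 0 lower, against 4.22%. With 10 genes, counts of 0 are near these shares. By scaled pileup Pgk1 was the 1 member past the limit, higher in females, where 2.72% of the common set was, and in males, where 4.23% was. None was lower, where 1.86% and 4.64% of the common set were. Since Pgk1 was selected on this contrast, nothing is read from its count.

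**Figure D2:**
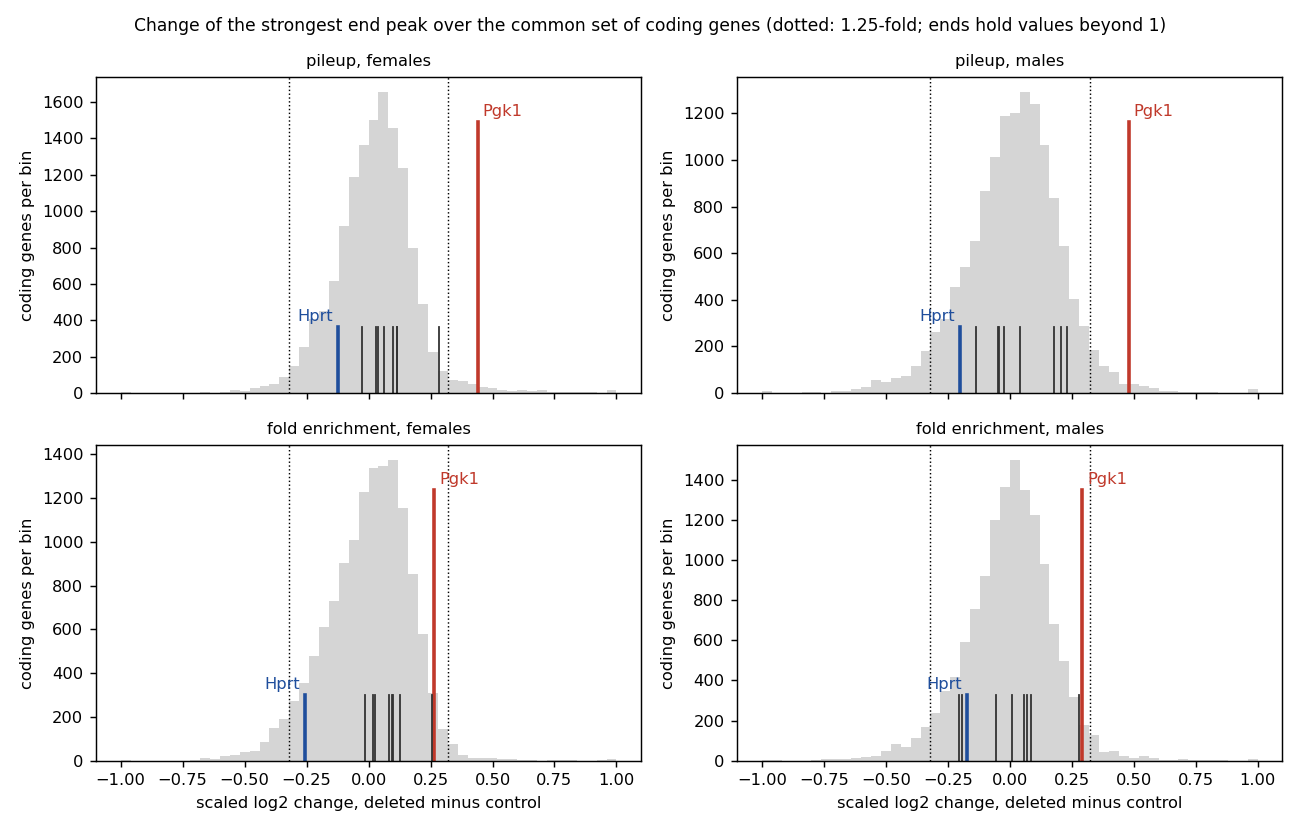
Scaled log2 change of the strongest end peak, deleted minus control, over the 13465 coding genes of the common set (grey bars, genes per bin) for pileup (top) and fold enrichment (bottom), in females (left) and males (right); vertical lines mark the 10 members and dotted lines 0.32 in either direction. Pgk1 (red) stands apart from the other members by pileup, at 0.44 and 0.48, while by fold enrichment Polr2a in females (0.25) and Eef1a1 in males (0.28) lie close to it.

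Among all peaks of a list, ordered by the authors' −log10 q, the Pgk1 peak ranked 2480 of 130103 in control females and 274 of 104316 in deleted females. In males it ranked 1108 of 101322 in the control and 56 of 88159 in the deleted list. These ranks come from lists of different length. Within the common set, which is the same in each list, its place by −log10 q went from 1730 to 185 in females and from 778 to 12 in males. By pileup the place went from 1387 to 56 and from 1053 to 23, and by fold enrichment from 3344 to 1409 and from 1300 to 290. The deposited −log10 q was 86.8, 106, 94.6 and 127 in the order of the lists. Pgk1 had the highest −log10 q and the highest pileup of the 10 members in the control lists as well as in the deleted ones. By fold enrichment it was 3rd in control females behind Hprt and Sdha, 2nd in deleted females behind Sdha, 2nd in control males behind Hprt and 1st in deleted males.

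Hprt, the other X-linked member, went the other way. Its pileup was 129 in the control and 98 in the deleted list of females, and 99 and 74 in those of males. Fold enrichment was 10.3, 8.13, 12.0 and 10.6, and the scaled log2 change was -0.26 in females and -0.17 in males. Its place in the common set by −log10 q went from 2183 to 4698 in females and from 2921 to 5121 in males. Hprt had the lowest scaled change of the 10 members in females, and in males Gusb (-0.21) and B2m (-0.19) were lower.

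The genes of transcription and translation lay above or near 0. Polr2a, which encodes the largest subunit of RNA polymerase II, had pileups of 129, 130, 102 and 99 in the order of the lists and fold enrichments of 4.98, 5.6, 6.13 and 6.53. Its scaled log2 change was 0.25 in females, next to that of Pgk1, and 0.09 in males. Tbp, the TATA-binding protein gene, had pileups of 123, 104, 103 and 87 and scaled changes of 0.10 and 0.01. Eef1a1, the gene of a translation elongation factor, had pileups of 162, 140, 119 and 120 and fold enrichments of 5.89, 5.92, 6.41 and 7.81. Its changes were 0.10 and 0.28, the latter next to that of Pgk1 in males. In control males the Eef1a1 signal was called as 2 peaks, of 433 and 899 bp, where the other lists had 1 peak of 1494 to 1543 bp.

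The scaled changes of the other metabolic genes were below that of Pgk1 in each sex. Gapdh, a glycolytic enzyme gene like Pgk1, had pileups of 155, 126, 120 and 100 and the lowest fold enrichment of the members in each list, 3.85 to 5.01. Its scaled log2 changes were -0.02 and -0.05. Sdha, a subunit gene of succinate dehydrogenase, had pileups of 125, 112, 94 and 83 and changes of 0.08 and 0.07. Its peak also lies within 1 kb of an end of Ccdc127, so the value belongs to both genes. Gusb, the gene of the lysosomal enzyme beta-glucuronidase, had pileups of 115, 102, 96 and 75 and changes of 0.02 and -0.21.

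Ppia, which encodes the protein-folding enzyme cyclophilin A, had pileups of 124, 111, 99 and 98 and changes of 0.13 and 0.06. B2m, the light chain of class I histocompatibility molecules, had pileups of 113, 96, 94 and 78 and changes of 0.03 and -0.19. Over the 9 members other than Pgk1 the scaled log2 change ran from -0.26 to 0.25 in females, with a median of 0.08, and from -0.21 to 0.28 in males, with a median of 0.01. The median over the common set was 0.02 and 0.01. The gap between Pgk1 and the next member was small by fold enrichment and wider by pileup, where the next members stood at 0.28 in females (Polr2a) and 0.23 in males (Eef1a1).

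The background behind the fold enrichment can be read from the ratio of the pileup plus 1 to the fold enrichment. At Pgk1 it was 22.4 tags in control females and 22.2 in deleted females, a ratio of 0.992, and in males the ratio of deleted to control was 0.974. For the other 9 members the same ratios ran from 0.839 to 0.966 in females and from 0.828 to 0.949 in males, and the medians of the common set were 0.891 and 0.865. The Hprt background of 12.6 tags in control females recurs at weaker peaks within 100 kb of Pgk1, so it need not be local to Hprt. By these ratios the Pgk1 background fell less than that of the other members. The regional window for the background was 10000 bp and holds the peak's own tags, so this value is not independent of the peak height.

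Peak width did not follow the height. The Pgk1 peak was 756 bp wide in the control and 612 bp in the deleted list of females, and 621 and 631 bp in those of males. Scaled to the median width of the common set, it changed by -0.18 in females and 0.13 in males on the log2 scale. By width Pgk1 was 8th or 9th of the 10 members in each list, so the tallest of these peaks was among the narrowest. Its summit lay between 106187021 and 106187023 on chromosome X, within 2 bp in the 4 lists. The median spread of the summit over the common set was 44 bp, and 0.891% of genes had a spread of at most 2 bp. Gapdh also had a spread of 2 bp, Hprt and B2m of 9 bp, and Eef1a1 of 111 bp.

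Around the promoter, the other peaks of the Pgk1 locus did not rise with it. Within 100 kb of the gene the lists held 11, 5, 7 and 4 peaks in the order of the lists, at 12 sites. Of these, 4 sites had a peak in each list. The peak inside Atp7a, a copper transporter gene, had pileups of 59, 41, 42 and 31 and scaled log2 fold enrichment changes of -0.38 in females and -0.17 in males. A peak outside genes, from 106171142 to 106171451, had pileups of 75, 59, 49 and 28 and changes of -0.20 and -0.53. The peak inside Taf9b, a gene of the transcription machinery, had pileups of 102, 86, 79 and 56 and changes of -0.09 and -0.16. The promoter of Pgk1 was the 1 shared site of the locus whose pileup and scaled fold enrichment rose in both sexes. In the common set the pileup was higher in deleted females for 3.65% of genes, in deleted males for 10.6% and in both for 1.18%. In direction, lower pileups at the other shared sites are thus what most genes show, although these sites are not gene ends. In size, fold enrichment fell below the 5th percentile of the common set for Atp7a in females (-0.38, against -0.305). It also did for the peak outside genes in males (-0.53, against -0.303). Scaled pileup did so in the same places (-0.25, against -0.239, and -0.59, against -0.314). The remaining changes at these sites lay above that percentile. Pgk1 was selected for its rise, so nothing particular to the locus is read from the contrast.

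Inside Pgk1 the weaker peaks were fewer in the deleted lists. The peak from 106187882 to 106188072, inside the gene near its start, had a pileup of 54 in control females and was in no other list. A peak from 106203416 to 106203617, at the far end of the gene, had pileups of 38 in control females and 24 in control males and no counterpart in either deleted list. Of the peaks inside the gene and beyond 1 kb from its ends, the lists held 2, 1, 1 and 0 in the same order. The deleted lists are also shorter. Their tags were 0.963 of those of the control list in females and 0.814 in males. The part of depth in these counts was not tested.

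**Figure D3:**
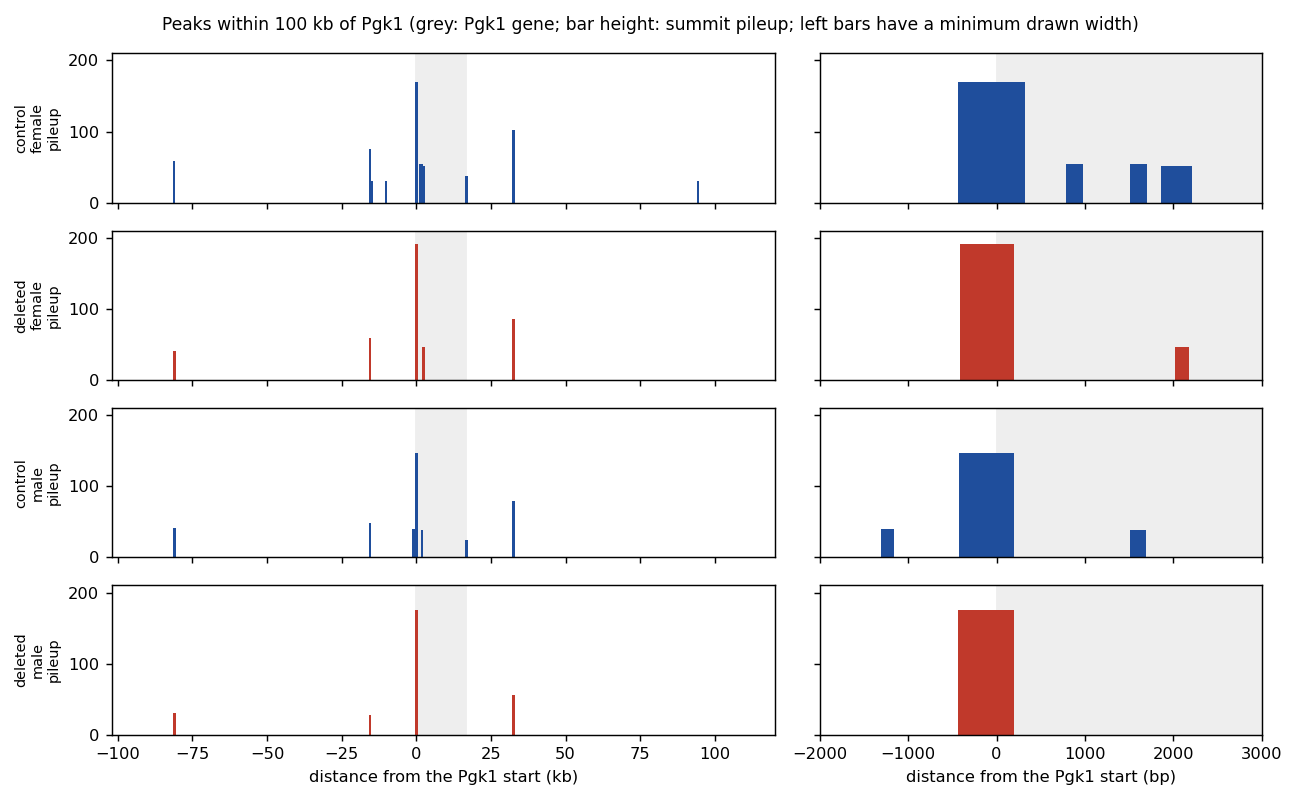
Peaks within 100 kb of Pgk1 in the 4 lists, at their distance from the Pgk1 start in kb (left) and, near the start, in bp (right); bar height is the summit pileup and the grey area is the gene. The promoter peak rises from 170 to 191 and from 147 to 176, while the other sites shared by the 4 lists are lower in the deleted lists, as is the median pileup of the common set.

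The members' counts of end peaks were 18, 15, 17 and 14 in the 4 lists. The farthest summit inside the 1 kb limit belonged to Polr2a in each list, at 887 to 923 bp, with a pileup of 73 at 917 bp in control females. Just outside lay a B2m peak at 1042 bp in control females with a pileup of 37. In control males a peak of pileup 40 lay 1280 bp from the start of Pgk1.

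Other genes of glycolysis were compared with Pgk1. Of 20 listed, 15 were in the common set; Hk1, Aldoa, Ldha, Pgam2 and Pgk2, the second phosphoglycerate kinase gene, known from testis, were not. In females 0 of the 15 passed the limit of 0.32 in either direction and in males 0 did, with medians of 0.03 and -0.02. The shares of the common set were 1.36% higher and 4.35% lower in females and 2.37% and 4.22% in males, so counts of 0 among 15 are near them. After Pgk1 the largest mean changes were those of Hk2, a hexokinase gene, at 0.13 and 0.21, of Pfkl, a phosphofructokinase gene, at -0.21 and -0.07, and of Eno2, an enolase gene, at -0.25 and 0.01. Pgk1 was the 1 gene of the 15 with a higher pileup in deleted females, and in males Gpi1 was higher as well, where 3.65% and 10.6% of the common set were.

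Of 25 further constitutive genes 23 were in the common set, with medians of 0.05 in females and 0.06 in males. Actb, the cytoplasmic actin gene, was the 1 gene past the limit in females, at 0.46, where 1.36% of the common set was higher, and stood at 0.23 in males. Its peak was weak, with fold enrichments of 1.74, 2.25, 1.91 and 2.24 and pileups of 73, 78, 53 and 51. Psmb2, a proteasome gene, had 0.00 and 0.31. No gene of this list was past the limit on the lower side, where 4.35% of the common set was in females and 4.22% in males. In males 0 were higher, against 2.37%. The pileup was higher in the deleted list for 1 of the 23 in females (4.35%, against 3.65% of the common set). In males it was higher for 3 (13.0%, against 10.6%).

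X-linked constitutive genes were compared because Pgk1 lies on X. Of 40 listed, 37 were in the common set, with medians of -0.07 in females and 0.01 in males. In females 0 were past the limit on the higher side, and Huwe1 and Ndufa1 were lower, where 1.36% of the common set was higher and 4.35% lower. In males Atp6ap1, Stag2 and Ndufa1 were higher and Huwe1 lower, where 2.37% and 4.22% of the common set were. Over all X genes of the common set the shares were 1.83% higher and 6.16% lower in females and 3.42% and 9.36% in males. Huwe1, a ubiquitin ligase gene, changed by -0.34 and -0.43, and Stag2, a cohesin subunit gene, by 0.19 and 0.35. Hsd17b10, a mitochondrial dehydrogenase gene, changed by -0.30 and -0.20. Ndufa1, a gene of respiratory complex I, changed by -0.39 in females and 0.51 in males. Its peak was weak, with pileups of 58, 40, 30 and 36, where the medians of the common set were 122, 101, 92 and 79. Pgk1 was the 1 gene of the 37 with a higher pileup in deleted females (2.70%, against 3.65% of the common set), and 1 of 8 in males (21.6%, against 10.6%). Of those 8, Idh3g and Ssr4 share the same peak.

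Over all 438 X genes of the common set the median scaled change was -0.04 in females and 0.02 in males, against 0.02 and 0.01 for 13026 autosomal genes. Of 10 listed genes that escape X inactivation, 5 were in the common set, with medians of 0.05 and 0.11. The common set holds only protein-coding genes, so genes of another kind are absent whatever their peaks. None of the 5 was past the limit, where 1.36% of the common set was higher and 4.35% lower in females. In males 2.37% and 4.22% were. None had a higher pileup in a deleted list, where 3.65% of the common set did in females and 10.6% in males. With 5 genes, counts of 0 are near these shares. Kdm5c, a histone demethylase gene, changed by 0.16 and 0.12.

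**Figure D4:**
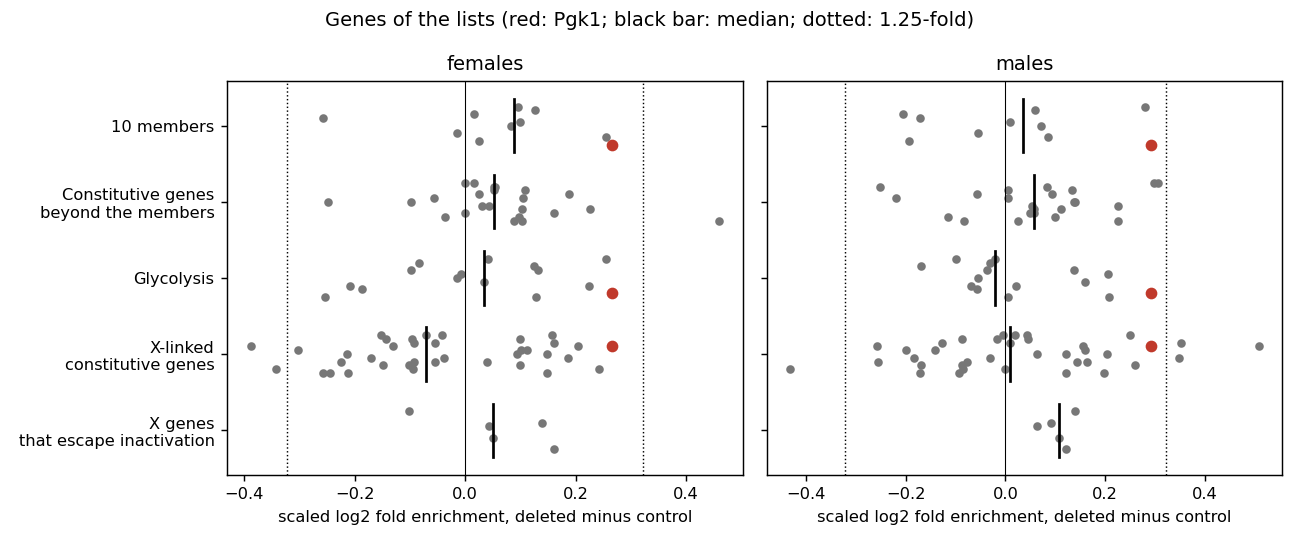
Scaled log2 fold enrichment, deleted minus control, for the members and the 4 gene lists in females (left) and males (right); each point is a gene, red is Pgk1, black bars are medians and dotted lines 0.32 in either direction. Pgk1 lies at 0.27 and 0.29, at the upper edge of the members and of the glycolysis genes. Among X-linked genes in males Ndufa1 reaches 0.51, on a weak peak with pileups of 30 in the control and 36 in the deleted list.

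The coding genes whose pattern over the 4 lists was nearest to that of Pgk1 were Micu3, Flvcr1, Acsl4, Rpl35 and Slc25a3. Likeness was the Euclidean distance of the 4 scaled log2 fold enrichments, each centred on the gene's mean. It ran from 0.0778 for Micu3, at 0.25 and 0.20, to 0.105 for Slc25a3, a mitochondrial phosphate carrier gene, at 0.20 and 0.19. Within a distance of 0.2 lay 238 genes, and the median distance was 0.40. Acsl4, a fatty acid ligase gene, is the 1 X-linked gene of the 5, with changes of 0.13 and 0.30.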

How the data were processed

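ATAC-seq was analysed from 4 deposited peak lists of 10 libraries. The authors pooled each group and ran MACS, version 2.1.0.20140616 per the file headers, without a control file, keeping 1 tag per position, shifting ends by 75 bp, extending them to 150 bp and accepting q up to 0.05. Pileup is the authors' deposited signal height at the summit. Fold enrichment is the authors' deposited ratio over local background. The −log10 q values are deposited as well, and the peak width is read from the authors' list. Per the submitters' processing notes, Trim Galore 0.4.0, Bowtie2 2.2.5 and the build mm10 were used.

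Only peaks on the autosomes (1 to 19), X and Y entered. Each gene took its end peak with the highest −log10 q. Values were divided by the median of the common set in the list and compared as log2 differences, and a change past 0.32 was counted. Members and gene lists were chosen with earlier results of these data known. Genes were named by a rule: the 10 members, up to 4 genes per list with the largest mean change over the sexes, genes past the fold, the 5 nearest to Pgk1 and the peaks within 100 kb of it. Gene positions and promoters came from RefSeq tables of GRCm38.p6, in which every listed gene was found. The values of 1 gene that the rule names are not reported here. The counting was tested on simulated data. Python 3.11.15, pandas 2.3.3, numpy 2.4.6 and matplotlib 3.10.9 were used. The alternatives were another window, choice of peak, measure, scaling, peak set, gene set and fold.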

Additional observations from a re-analysis of the deposited data

How the results depend on the processing

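The Pgk1 change kept its sign in males under 13 alternatives, from 0.132 to 0.634, and in females under 12 of 13; by peak width the female value was -0.178. It moved by more than the SD between control lists (0.163) with pileup, to 0.441 in females and 0.480 in males, and with −log10 q, to 0.638 and 0.634. In each sex Pgk1 exceeded the 9 other members under 11 of 13 alternatives. The exceptions were peak width and quantile scaling, with 0.217 for Pgk1 against 0.288 for the highest other member in females and 0.231 against 0.283 in males. Pgk1 was selected on this contrast and the alternatives draw on the same 4 lists, so the tally is no added support. The counts past the limit were 0 in each direction and sex. They became 1 higher in each sex by pileup (Pgk1), 2 higher in each sex by −log10 q (Pgk1 with Polr2a in females and with Eef1a1 in males) and 1 higher in males by width (Eef1a1). The Eef1a1 width was that of 1 of 2 called peaks in control males, 899 bp, and of the 1 peak in deleted males, 1494 bp. Without scaling 1 member was lower in females (Hprt). At a fold of 1.1, 2 were higher in each sex, and 1 was lower in females and 3 in males. The share of the common set was not counted for −log10 q, width, unscaled values or the fold of 1.1. Over the common set the SD of the change was 0.35 in females and 0.36 in males by −log10 q. By width it was 0.36 and 0.38, and by scaled fold enrichment 0.17 and 0.18. Nothing is read from these counts of members. For the values and counts that moved, the cause was not tested beyond the change of measure, scaling or fold itself. The other 50 counts of members kept their value, and the median of the other 9 members stayed within 0.163 of its value in all 26 cases. No paired analysis was possible because each group has 1 pooled list.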
